A study of Mus musculus with 5 samples.

Results

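The translation initiation factors are the proteins that bring a ribosome, the initiator tRNA and a messenger RNA together at the start codon, and they are described here as 51 genes in mouse liver. Members were all non-control probes whose gene name on the array starts with Eif followed by a digit from 1 to 6, leaving out the eIF2 kinases Eif2ak1 to Eif2ak4 and the repressor Eif4ebp1. That rule, which reads names and no signal, gave 100 probes of 56605 and 51 gene names of 36866. All 5 arrays measured 48 of these genes well above background, the RGZ array alone measured Eif4e3, and 2 genes, Eif2c5 and Eif2s3y, were above background on no array. Eif2c5 is an older Argonaute-type symbol that the name rule picks up.

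The study, a mouse model of liver injury by troglitazone, compared the livers of female BALB/c mice aged 6 weeks, collected 6 hr after an intraperitoneal dose. Its 5 groups were vehicle; TGZ at 300 mg/kg; BSO at 700 mg/kg with TGZ at 300 mg/kg; RGZ at 300 mg/kg; and BSO at 700 mg/kg with RGZ at 300 mg/kg. TGZ is troglitazone, a thiazolidinedione antidiabetic withdrawn for liver toxicity, and RGZ is read here as rosiglitazone, another thiazolidinedione, with BSO as buthionine sulfoximine, an inhibitor of glutathione synthesis. RNA from the 6 animals of a group was pooled and measured on 1 array per group, with no array for BSO given without a drug, so a difference between 2 arrays carries no animal-to-animal spread and no test. Whole liver RNA was measured, so more transcript per cell and more cells of an expressing type cannot be told apart.

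Initiation proceeds in steps that name the factors. eIF2 carries the initiator tRNA to the small ribosomal subunit and eIF2B reloads eIF2 with GTP. eIF1, eIF1A, eIF3 and eIF5 assemble on that subunit and check the start codon, while eIF4E, eIF4G and eIF4A bind the cap and unwind the messenger. eIF5B then joins the large subunit, from which eIF6 must first come off. The liver makes large amounts of secreted protein, and stress on the liver cell is known to act on initiation through phosphorylation of eIF2 and through the eIF4E-binding repressors.

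Values below are log2 signals relative to the 75th percentile of the probes on each array, so 0 is that percentile and a step of 1 is 2-fold. A gene is represented by its brightest probe. Each fold carries a 95% interval from the scanner software's own error for the 2 spots, which spans a factor of 1.32 to either side for most members and covers measurement only. The vehicle array enters every comparison with vehicle, so those comparisons are not independent of each other. Signal at the 75th percentile ran from 141.5 on the TGZ array to 208.3 on the RGZ array, 51.9% to 55.1% of probes were well above background, and no spot was saturated. All 6 hepatocyte markers were above background on every array. The summed scaled signal of the 6 neutrophil markers was 109 with vehicle, 252 with TGZ, 254 with BSO plus TGZ, 119 with RGZ and 125 with BSO plus RGZ, with every marker above background on every array. At least 2-fold above vehicle were 3 of the 6 with TGZ, 4 with BSO plus TGZ, 4 with RGZ and 3 with BSO plus RGZ. The median log2 differences of these markers were 2.27, 2.58, 1.16 and 1.02 in the same order. The summed signal of the other lists ran from 27.7 to 39.4 for Kupffer cells, 85.6 to 123 for stellate cells, 33.5 to 57.3 for sinusoidal endothelium, 251 to 481 for erythroid cells, 5.31 to 8.83 for T cells, 0.71 to 1.17 for B cells and 0.66 to 5.10 for cholangiocytes, the last highest with TGZ through Sox9 alone, 13.4-fold above vehicle, while Krt19 was 1.63-fold lower and Krt7 and Epcam were not above background. The part of any of these cells in the initiation factor values was not tested.

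With TGZ, 6 initiation factor genes were at least 2-fold above vehicle and none was 2-fold below. They were Eif1a, Eif2b3, Eif4a1, Eif5, Eif3j1 and Eif6, which belong to different complexes and act at different steps of initiation. Over all 21314 genes with a value, 10.1% lay 2-fold or more above vehicle and 9.48% as far below, so the 6 of 48 members (12.5%) are a share near that of all genes. At 1.5-fold, 8 members were higher and none lower, against 18.5% and 18.9% of all genes. A value above 0 was found for 37 of 48 members and for 50.8% of all genes, and the median was 0.29 over the members and 0.01 over all genes. Scaling to spike-in controls in place of the 75th percentile lowered every TGZ difference by 0.46. That left 11 members above 0 (23.0% of all genes) and a member median of -0.16 against -0.44 over all genes. Eif1a alone was then past 2-fold, beside 5.63% of all genes higher and 20.1% lower. The members' median lay above that of all genes by 0.28 on either scale. A constant shift of all genes leaves that gap nearly unchanged by construction. That gap was 0.14 with quantile normalization, 0.15 with normexp and 0.04 with no filter on dim probes, and the member median was 0.11 with quantile normalization. The 1.5-fold calls also turned on the scale. With spike-in controls Eif2b5 (-0.92), Eif4e1b (-0.83), Eif5b (-0.76), Eif4ebp2 (-0.75), Eif1ax (-0.65), Eif2d (-0.65) and Eif3l (-0.63) were at least 1.5-fold lower. Eif1a (1.55), Eif2b3 (0.81), Eif4a1 (0.64) and Eif5 (0.60) stayed at least 1.5-fold higher.

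With BSO plus TGZ, Eif1a alone was at least 2-fold above vehicle and no member was 2-fold below, against 8.31% and 5.89% of all genes. At 1.5-fold the counts were 7 members higher and none lower, against 15.6% and 15.4%. The members' median was 0.15 and that of all genes -0.03, with 38 of 48 members above 0 and 47.6% of all genes. With spike-in scaling 21 members and 33.6% of all genes lay above 0. The 7 members stayed at least 1.5-fold higher, but Eif4e1b (-0.64) and Eif2b5 (-0.62) were then at least 1.5-fold lower.

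With RGZ, no initiation factor gene was 2-fold from vehicle, where 1.65% of all genes were higher and 1.66% lower by that much. Eif4ebp3, a repressor that holds eIF4E, was the only member at least 1.5-fold higher and none was lower, against 5.96% and 7.55% of all genes. With spike-in scaling Eif1a (0.66) was also at least 1.5-fold higher. Of 49 members with a value or a bound (the 48 and Eif4e3), 36 lay above 0 (45.3% of all genes), with a median of 0.11 against -0.03.

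With BSO plus RGZ, no member reached 2-fold either way, against 3.05% of all genes higher and 3.78% lower. Under 4 alternatives 1 member did: Eif4ebp3 with median scaling (1.01) and with spike-in scaling (1.03), Eif6 with the mean over probes (1.10), and Eif4e3 with no filter on dim probes. Eif4ebp3, Eif6, Eif2b4, Eif1a and Eif3j1 were at least 1.5-fold higher and none was lower, against 9.83% and 12.9%. With spike-in scaling Eif2b1 (0.70), Eif3j2 (0.69), Eif3a (0.66), Eif4a3 (0.65), Eif2b2 (0.62) and Eif4g2 (0.60) were also at least 1.5-fold higher. The median was 0.24 against -0.05 over all genes, and 40 of 48 members lay above 0, against 45.8% of all genes. Over the 48 members measured on all arrays, the vehicle array held the lowest value for 29 genes (60.4%, against 22.8% of all genes so measured). The highest value fell on the TGZ array for 21 genes (43.8% against 34.0%) and on the BSO plus RGZ array for 20 (41.7% against 20.7%). These counts turned on the scale: with spike-in controls the lowest array was TGZ for 34 members and vehicle for 10, against 66.5% and 14.7% of all genes, and the highest was BSO plus RGZ for 36, against 39.0%.

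**Figure D1:**
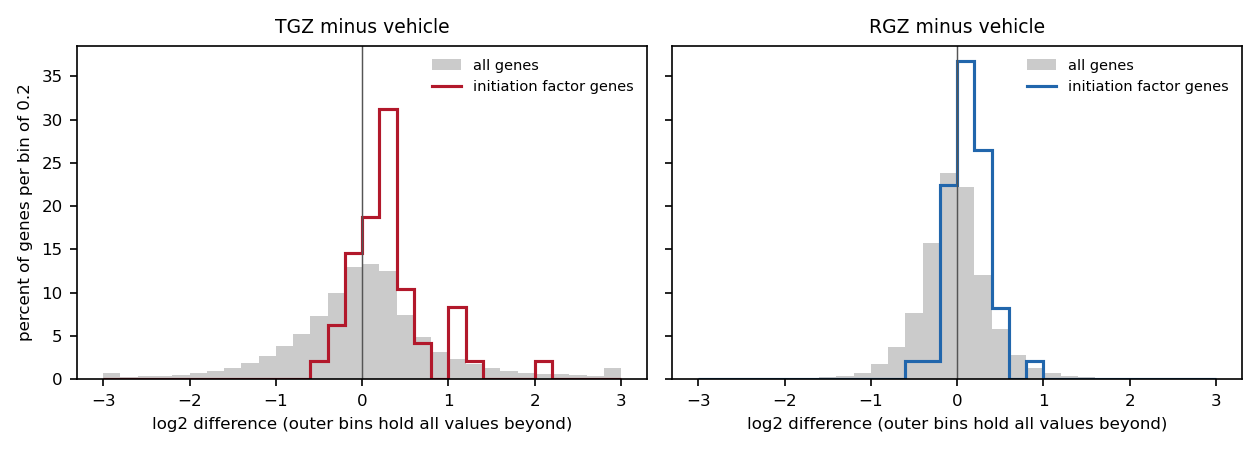
Share of genes (vertical axis, percent) by log2 difference from vehicle in bins of 0.2, for TGZ on the left and RGZ on the right, 1 array per group. Grey areas are all genes with a value and coloured lines are the initiation factor genes, which lie in a narrower band with medians of 0.29 with TGZ and 0.11 with RGZ. On the spike-in scale all TGZ values would lie lower by 0.46.

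The factors varied less across the 5 arrays than genes in general did, in a comparison not matched for signal. Among members measured on all arrays, all but Eif2a, Eif4e1b, Eif5a2 and Eif5b lay above the percentile used for scaling on every array. Whether the members also varied less than genes of like signal was not tested. The distance from a gene's lowest to its highest array had a median of 0.46 over the members and 0.66 over the 18484 genes above background on all arrays. It reached 1 for 6 of 48 members (12.5%) and for 27.1% of all such genes. By their gene probes Eif3c, a core eIF3 subunit, spanned 0.13, and Eif1a spanned 2.01. A second Eif3c probe, above background on all arrays, ran from -1.06 with TGZ to -0.15 with BSO plus RGZ. Its difference from vehicle with TGZ was -0.69, against 0.12 for the gene's probe.

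**Figure D2:**
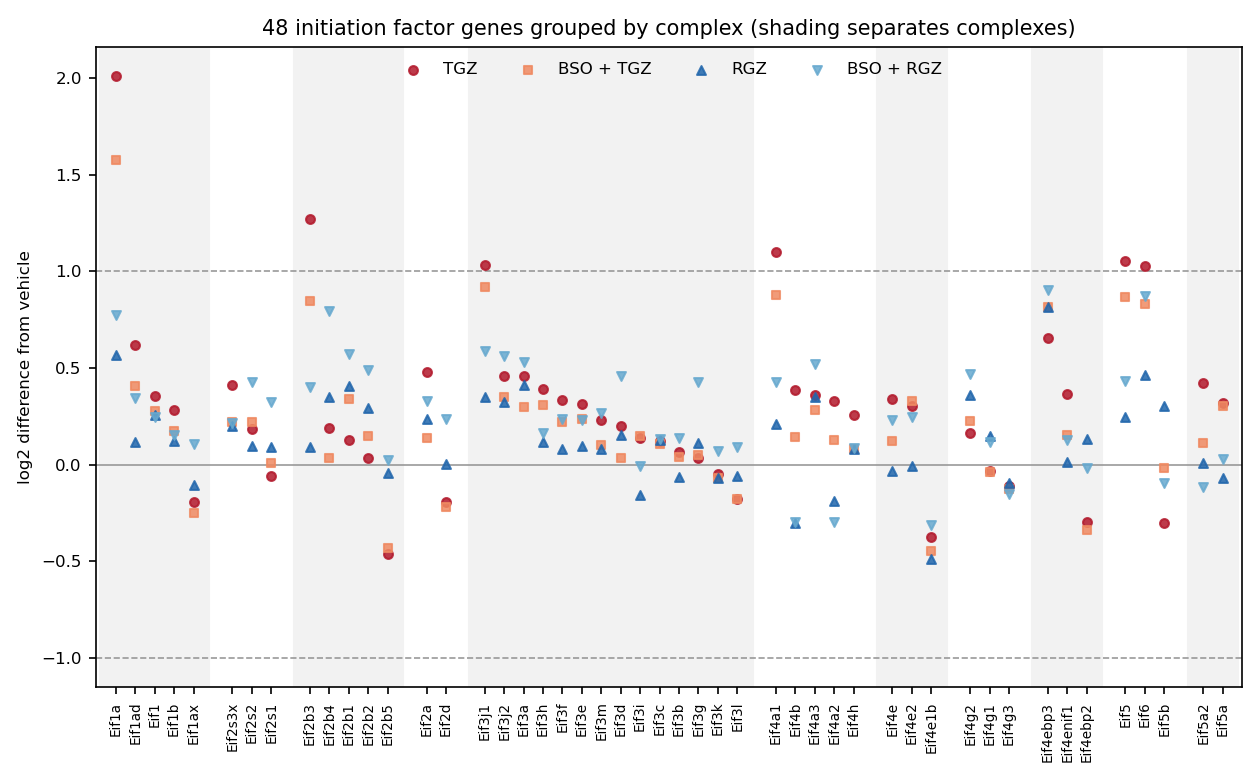
Log2 difference from vehicle (vertical axis) of the 48 initiation factor genes measured on all arrays, grouped by complex, with 1 point per treated group and dashed lines at 2-fold. Eif1a stands at 2.01 with TGZ, 5 other genes lie just above the upper line with TGZ, and no point reaches the lower line; on the spike-in scale all TGZ points would lie lower by 0.46 and the points past the upper line would be Eif1a with TGZ and BSO plus TGZ and Eif4ebp3 with BSO plus RGZ, at 1.03.

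Among the factors that scan for the start codon, Eif1a had the largest difference of all members. Eif1a encodes a form of eIF1A, the small factor that sits in the decoding site and opens the small subunit for scanning, and its probe lies at chr18:46768754-46768813 on the plus strand (mm9, the build of the array annotation). The scaled log2 signal was 2.98 with vehicle, 4.99 with TGZ, 4.56 with BSO plus TGZ, 3.55 with RGZ and 3.76 with BSO plus RGZ. Both TGZ arrays stood highest, and both RGZ arrays lay between them and vehicle. Relative to vehicle, Eif1a was 4.03-fold higher with TGZ (95% interval 3.05 to 5.31), 2.98-fold higher with BSO plus TGZ (2.26 to 3.94), 1.48-fold with RGZ (1.12 to 1.95) and 1.71-fold with BSO plus RGZ (1.30 to 2.26). It was past 2-fold with TGZ under all 8 alternatives that recompute its value, with the lowest log2 difference, 1.55, on the spike-in scale.

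The X-linked eIF1A gene, Eif1ax, did not share that pattern. Its signal was 3.61 with vehicle, 3.42 with TGZ, 3.36 with BSO plus TGZ, 3.51 with RGZ and 3.72 with BSO plus RGZ, a spread within the spot error on this scale. After spike-in scaling it was below vehicle by more than the spot error with TGZ (-0.65) and BSO plus TGZ (-0.44). It was then at -0.01 with RGZ and 0.24 with BSO plus RGZ. Eif1ad, which encodes a protein with an eIF1A-type domain, read 4.62 with vehicle, 5.24 with TGZ, 5.03 with BSO plus TGZ, 4.74 with RGZ and 4.96 with BSO plus RGZ. That is 1.54-fold above vehicle with TGZ (1.17 to 2.03), and 0.16 on the log2 scale after spike-in scaling. Eif1 and Eif1b, whose product guards the choice of start codon, differed from vehicle by 0.12 to 0.35 on all treated arrays.

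The subunits of eIF2 itself differed little. Eif2s1, the alpha subunit whose phosphorylation stops initiation, read 3.29 with vehicle, 3.23 with TGZ, 3.30 with BSO plus TGZ, 3.37 with RGZ and 3.61 with BSO plus RGZ. Differences from vehicle over Eif2s1, Eif2s2 (beta) and Eif2s3x (the X-linked gamma subunit) ran from -0.06 to 0.43. A second Eif2s3x probe, above background on all arrays, was at 0.62 with TGZ and 0.55 with BSO plus TGZ. It was at 0.58 with RGZ and 0.30 with BSO plus RGZ. A second Eif2s2 probe, also above background on all arrays, ran from 0.28 with TGZ to 0.59 with BSO plus RGZ. On the spike-in scale Eif2s1 was below vehicle by more than the spot error with TGZ (-0.52) and above it with BSO plus RGZ (0.45). Eif2s3y, the Y-linked copy of gamma, was not well above background on any of these arrays from female mice. Eif2a and Eif2d, which can deliver initiator tRNA without eIF2, lay at 0.48 and -0.19 with TGZ.

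The subunits of the exchange factor eIF2B had unlike values. Eif2b3, the gamma subunit that works with epsilon in nucleotide exchange, stood at 1.77 with vehicle, 3.03 with TGZ, 2.61 with BSO plus TGZ, 1.86 with RGZ and 2.17 with BSO plus RGZ. The TGZ array was the highest, and vehicle and RGZ lay within spot error of each other. Eif2b3 was 2.41-fold above vehicle with TGZ (1.83 to 3.18) and 1.80-fold with BSO plus TGZ (1.36 to 2.38), against 1.06-fold with RGZ (0.81 to 1.41) and 1.32-fold with BSO plus RGZ (1.00 to 1.74). Its TGZ difference was 0.81 on the spike-in scale.

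The array carries 3 probes for Eif2b3 that lie in different places of the gene, and they are printed because all of them carried the pattern. All were read from the plus strand of chromosome 4 in mm9, at chr4:116731398-116731457, at chr4:116739087-116739146 and, across a splice junction, at chr4:116754232-116759318, and each has at least 1 reading frame with no stop.
A_55_P2073945: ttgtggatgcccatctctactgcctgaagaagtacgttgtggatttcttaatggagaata
A_66_P127160: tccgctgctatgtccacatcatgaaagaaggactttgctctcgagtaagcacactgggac
A_55_P2487274: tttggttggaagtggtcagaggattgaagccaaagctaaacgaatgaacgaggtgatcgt
In this order, their log2 differences from vehicle were 1.28, 1.16 and 1.27 for TGZ and 0.95, 0.87 and 0.85 for its combination with BSO. For RGZ they were 0.14, 0.15 and 0.09, and for its combination with BSO 0.56, 0.44 and 0.40. The 3 values differed by less than the spot error in each comparison.

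The other eIF2B subunits had other patterns. Eif2b5, the catalytic epsilon subunit, read 2.57 with vehicle, 2.11 with TGZ, 2.14 with BSO plus TGZ, 2.53 with RGZ and 2.60 with BSO plus RGZ, and its -0.46 was the lowest TGZ difference of any member. Eif2b4, the delta subunit, had its high value elsewhere, at 4.78 with vehicle, 4.97 with TGZ, 4.81 with BSO plus TGZ, 5.13 with RGZ and 5.57 with BSO plus RGZ. It was 1.73-fold above vehicle with BSO plus RGZ (1.31 to 2.29), and its second probe gave 1.80-fold (1.35 to 2.38). Eif2b1 and Eif2b2, the alpha and beta subunits, were nearest to vehicle with TGZ, at 0.13 and 0.03, and farthest with BSO plus RGZ, at 0.57 and 0.49; on the spike-in scale the TGZ values were -0.33 and -0.42 and BSO plus TGZ was the nearest, at 0.15 and -0.04. A second Eif2b1 probe, above background on all arrays, ran the other way, at -0.02 with TGZ and -0.25 when BSO was added, and at -0.55 with RGZ and -0.80 when BSO was added, so the direction for Eif2b1 differs between its probes.

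Of the 14 eIF3 genes, 12 lay above vehicle with TGZ, 12 with BSO plus TGZ, 10 with RGZ and 13 with BSO plus RGZ, with medians of 0.22, 0.13, 0.10 and 0.23. On the spike-in scale 3, 6, 13 and 14 did. eIF3 is the largest initiation complex and holds the small subunit open for the messenger. Eif3l and Eif3k were lowest with TGZ, at -0.18 and -0.05, and Eif3a, Eif3h, Eif3f and Eif3e lay between 0.31 and 0.46.

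Eif3j1 was the eIF3 gene farthest from vehicle, and it encodes the loosely bound subunit that acts near the decoding site. It read 2.20 with vehicle, 3.23 with TGZ, 3.12 with BSO plus TGZ, 2.55 with RGZ and 2.78 with BSO plus RGZ. That is 2.04-fold with TGZ (1.55 to 2.70), 1.89-fold with BSO plus TGZ (1.43 to 2.50), 1.27-fold with RGZ (0.97 to 1.68) and 1.5-fold with BSO plus RGZ (1.14 to 1.98). The accessions behind this probe (chr2:121879180-121879239, mm9) and behind the Eif3j2 probe belong to both Eif3j1 and its neighbouring copy Eif3j2 in RefSeq, so the copies may share signal. The Eif3j2 probe was 0.46 above vehicle with TGZ and 0.56 with BSO plus RGZ, and a second Eif3j1 probe was 0.62 and 0.23 above.

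Eif4a1, the main helicase that unwinds the messenger ahead of the ribosome, read 6.03 with vehicle, 7.13 with TGZ, 6.91 with BSO plus TGZ, 6.25 with RGZ and 6.46 with BSO plus RGZ. It was 2.14-fold above vehicle with TGZ (1.63 to 2.83), 1.84-fold with BSO plus TGZ (1.39 to 2.42), 1.16-fold with RGZ (0.88 to 1.53) and 1.34-fold with BSO plus RGZ (1.02 to 1.77). Its TGZ difference of 1.10 came to 0.64 on the spike-in scale and 0.87 after quantile normalization, both short of 2-fold.

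Eif5 gave nearly the same folds as Eif4a1. Its product makes eIF2 hydrolyse GTP once the start codon is found, and its probe lies at chr12:112778375-112778434 on the plus strand (mm9). The 5 values were 4.61 with vehicle, 5.66 with TGZ, 5.47 with BSO plus TGZ, 4.85 with RGZ and 5.04 with BSO plus RGZ. Both TGZ arrays were above both RGZ arrays, which were above vehicle. Eif5 was 2.08-fold above vehicle with TGZ (1.57 to 2.74), 1.82-fold with BSO plus TGZ (1.38 to 2.40), 1.19-fold with RGZ (0.90 to 1.57) and 1.35-fold with BSO plus RGZ (1.02 to 1.78), and its TGZ difference was 0.60 on the spike-in scale.

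Eif6, which keeps the large subunit from joining too early, read 4.48 with vehicle, 5.51 with TGZ, 5.32 with BSO plus TGZ, 4.95 with RGZ and 5.36 with BSO plus RGZ. Relative to vehicle, Eif6 was 2.04-fold higher with TGZ (1.54 to 2.69), 1.78-fold with BSO plus TGZ (1.35 to 2.35), 1.38-fold with RGZ (1.04 to 1.82) and 1.83-fold with BSO plus RGZ (1.39 to 2.41). After spike-in scaling the log2 differences were 0.57, 0.64, 0.56 and 1.00 in the same order, so BSO plus RGZ was then the highest. Eif5b, the GTPase that joins the subunits, was the only member at least 1.5-fold lower in the comparison of the drugs, at -1.57 with vehicle, -1.87 with TGZ, -1.58 with BSO plus TGZ, -1.26 with RGZ and -1.66 with BSO plus RGZ.

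**Figure D3:**
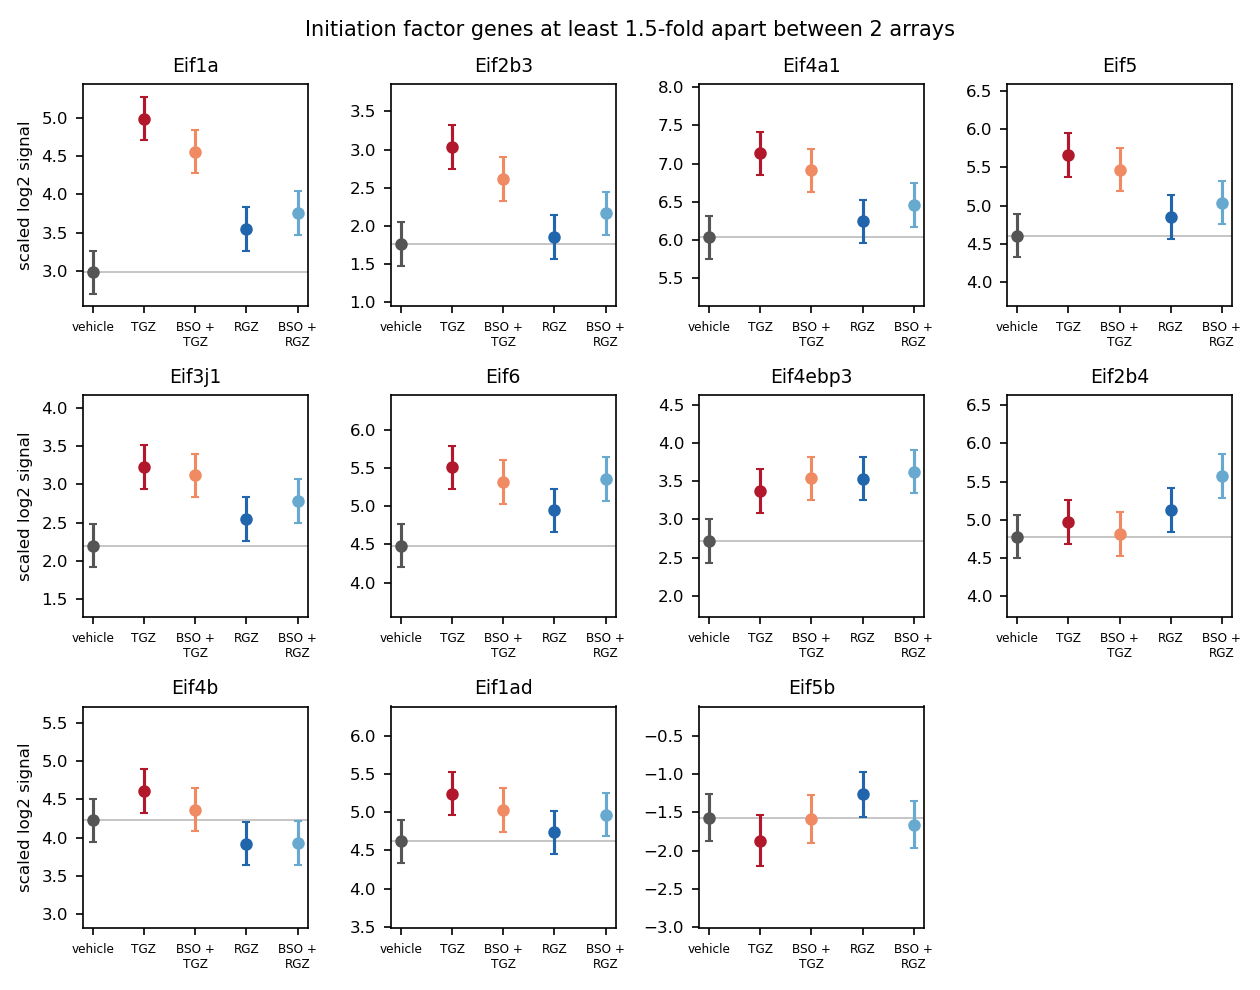
Scaled log2 signal (vertical axis, each panel spanning the same number of log2 units) of the 11 initiation factor genes at least 1.5-fold apart between 2 arrays, with 1 point per array, a bar for the 95% spot error and a grey line at the vehicle value. Eif1a, Eif2b3, Eif4a1, Eif5, Eif3j1, Eif4b and Eif1ad have both TGZ arrays above both RGZ arrays. Eif4ebp3 has all 4 treated arrays above vehicle, and Eif2b4 is highest at 5.57 with BSO plus RGZ. On the spike-in scale the TGZ points would lie lower by 0.46 relative to vehicle. TGZ would then lie below BSO plus RGZ for Eif3j1 (0.57 against 0.71) and Eif1ad (0.16 against 0.47).

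The partners of the helicase had smaller differences than Eif4a1. Eif4b, which stimulates eIF4A, read 4.23 with vehicle, 4.61 with TGZ, 4.37 with BSO plus TGZ, 3.92 with RGZ and 3.93 with BSO plus RGZ, so the RGZ arrays were the lowest. Its second probe put RGZ at 0.10 and BSO plus RGZ at 0.24 above vehicle, so the low RGZ value was not seen in both. Eif4h, Eif4a2 and Eif4a3, the last a helicase of the exon junction complex, lay between 0.26 and 0.36 with TGZ.

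The cap-binding factors and their scaffold were close to vehicle by their gene probes. Eif4e, the cap-binding protein, read 2.33 with vehicle, 2.68 with TGZ, 2.46 with BSO plus TGZ, 2.30 with RGZ and 2.56 with BSO plus RGZ. Eif4e2, a cap-binding homologue, lay between -0.01 and 0.33 from vehicle, and Eif4e1b, a germ-line form near the background, between -0.49 and -0.31. Another Eif4e2 probe, above background on all arrays, was at 0.82 with TGZ, 0.57 with BSO plus TGZ, 0.23 with RGZ and 0.18 with BSO plus RGZ. Eif4e3 was above background on the RGZ array alone, at least 1.22-fold above vehicle, with a spot-error interval of 0.245 to 6.08. The scaffold genes Eif4g1, Eif4g2 and Eif4g3 stood at -0.03, 0.16 and -0.11 with TGZ, and Eif4g2, a scaffold that does not bind eIF4E, was farthest from vehicle with BSO plus RGZ, at 0.47. Another Eif4g3 probe, above background on all arrays, ran the other way from the gene's probe. It was at 0.44 with TGZ, 0.33 with BSO plus TGZ, 0.09 with RGZ and 0.55 with BSO plus RGZ.

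Of the repressors that hold eIF4E, Eif4ebp3 was higher than vehicle on every treated array. It read 2.72 with vehicle, 3.37 with TGZ, 3.53 with BSO plus TGZ, 3.53 with RGZ and 3.62 with BSO plus RGZ. That is 1.57-fold (1.19 to 2.07), 1.76-fold (1.34 to 2.32), 1.76-fold (1.33 to 2.32) and 1.87-fold (1.42 to 2.47) above vehicle in that order. The treated arrays differed by less than the spot error on this scale, but after spike-in scaling the 4 log2 differences were 0.20, 0.62, 0.91 and 1.03, with BSO plus RGZ past 2-fold and above TGZ by more than the spot error. Eif4ebp2, another of these repressors, was below vehicle with TGZ and with BSO plus TGZ, at -0.30 and -0.34, and at 0.13 and -0.02 with the RGZ arrays. Eif4enif1, which carries eIF4E to the nucleus and to messenger-storage bodies, differed by 0.01 to 0.36. Eif5a, which helps ribosomes through difficult peptide bonds, stood at 0.32 with TGZ, and its paralogue Eif5a2 at 0.42.

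In 22 member genes several probes were above background on all arrays, which gives 31 other probes to set beside the gene's own. With TGZ, 23 of the 31 had the same sign as the gene's probe, the median gap between them was 0.13, and 2 gaps were above 1. Those 2 probes belong to Eif4e and Eif4a2. With BSO plus RGZ the 1 gap above 1 was in Eif2b1, whose second probe is given above, and an Eif6 probe had a gap of 0.72 there.

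The Eif4e probe, whose design transcript is ENSMUST00000200020, read -3.27 with vehicle, -0.56 with TGZ, -0.79 with BSO plus TGZ, -3.15 with RGZ and -2.29 with BSO plus RGZ. Both TGZ arrays were far above the rest, at 6.54-fold (4.47 to 9.57) and 5.59-fold (3.82 to 8.17) over vehicle, against 1.09-fold (0.71 to 1.67) with RGZ and 1.97-fold (1.33 to 2.92) with BSO plus RGZ. It lies 29461 bases before the Eif4e gene probe on the same strand. The Eif4a2 probe, designed on ENSMUST00000141392, read -0.42 with vehicle, 1.36 with TGZ, 0.80 with BSO plus TGZ, -0.79 with RGZ and -0.25 with BSO plus RGZ, or 3.44-fold (2.60 to 4.54) with TGZ and 2.32-fold (1.76 to 3.07) with BSO plus TGZ. Another Eif4a2 probe, 3722 bases before the gene's own probe, followed the gene's probe instead. The Eif6 probe, designed on ENSMUST00000109638, was 3.01-fold (2.15 to 4.22) above vehicle with BSO plus RGZ and 1.73-fold (1.22 to 2.47) with TGZ, whereas both other Eif6 probes were highest with TGZ; on the spike-in scale all 3 were highest with BSO plus RGZ.

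These are the Eif4e, Eif4a2 and Eif6 probes that stood apart, printed as a stretch of 30 bases each, beside probes of Eif4a2 and Eif6 that followed the gene's own, in full. Capitals mark AATAAA, the commonest signal for cutting and polyadenylating a transcript. That hexamer occurs in 14 of 100 member probes (14.0%) and in 9.77% of all probes. Positions are in mm9: the Eif4e probe at chr3:138189716-138189775 on the plus strand, the Eif4a2 probes at chr16:23109047-23109106 and chr16:23110158-23110217 on the plus strand, and the Eif6 probes at chr2:155650902-155650961 and chr2:155648573-155648632 on the minus strand.
Eif4e A_55_P1965584, bases 31 to 60: gtgggaggcgaaaagaaaaactaAATAAAa
Eif4a2 A_55_P2648932, bases 31 to 60: tactcttgctgatcacttatgtgggcgtaa
Eif4a2 A_52_P344376, whole: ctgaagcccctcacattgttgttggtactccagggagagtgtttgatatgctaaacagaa
Eif6 A_52_P371949, bases 28 to 57: ttaatctctgatAATAAAacatcctggtct
Eif6 A_55_P1989013, whole: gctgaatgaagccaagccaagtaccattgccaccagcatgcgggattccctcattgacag
The Eif4e and Eif6 stretches hold the hexamer and the Eif4a2 stretch does not. What these transcripts encode was not examined. No probe of a member gene matched a probe of another member gene at more than 32 of 58 aligned bases without gaps.

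**Figure D4:**
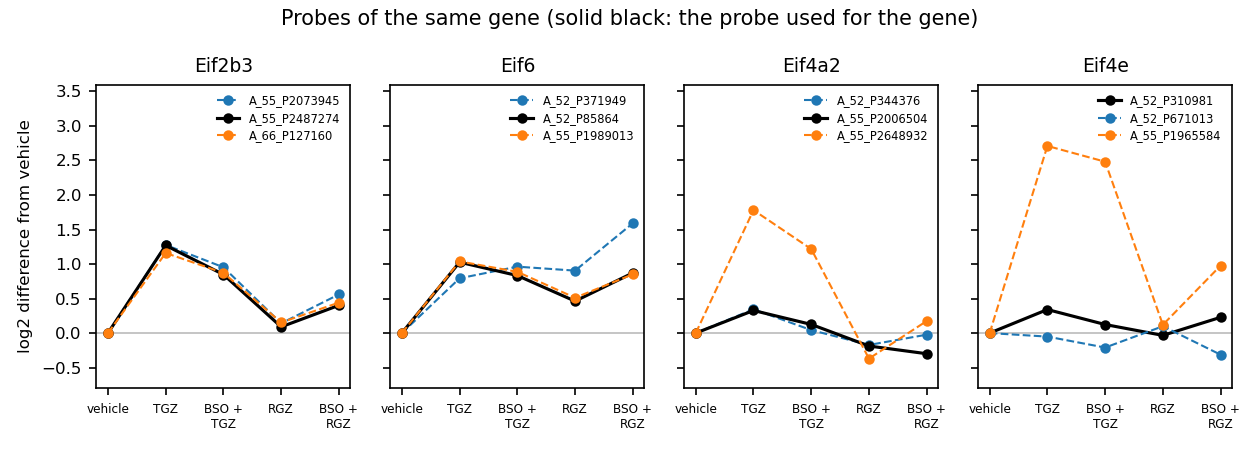
Log2 difference from vehicle (vertical axis) on the 5 arrays for each probe above background on all arrays in 4 genes, with lines joining the values of 1 probe and solid black for the probe that represents the gene. The 3 Eif2b3 probes overlie each other, and 1 probe each of Eif4a2 and Eif4e reaches 1.78 and 2.71 with TGZ while the gene's own probe stays at 0.33 and 0.34. On the spike-in scale every TGZ point would lie lower by 0.46.

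Troglitazone and rosiglitazone share the thiazolidinedione ring and differ in the rest of the molecule, which is a vitamin E-like chroman in troglitazone and a pyridine-containing side chain in rosiglitazone. At the same dose and time, Eif1a was 2.72-fold (2.06 to 3.59) and Eif2b3 2.26-fold (1.72 to 2.99) higher with TGZ than with RGZ, and no member was 2-fold lower, where 9.22% of all genes were higher and 8.4% lower. At 1.5-fold, 6 of 49 members were higher and 1 was lower, against 19.3% and 17% of all genes. Eif4a1 was 1.85-fold (1.40 to 2.44), Eif5 1.75-fold (1.33 to 2.31), Eif4b 1.61-fold (1.22 to 2.13) and Eif3j1 1.60-fold (1.22 to 2.12) higher with TGZ, and Eif5b was 1.52-fold lower (1.12 to 2.07). The member median was 0.13 with 32 of 49 genes above 0, against 0.06 and 53.5% over all genes. Scaling mattered here: spike-in controls lowered each value by 0.55, which left 7 members above 0, none 2-fold higher and 1, Eif5b at -1.16, 2-fold lower. Over all genes on that scale 20.8% lay above 0, 4.49% were 2-fold higher and 21.5% were 2-fold lower.

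With BSO given to both, Eif1a alone was at least 1.5-fold higher with TGZ than with RGZ, at 1.75-fold (1.32 to 2.30), and Eif2b4 alone lower, at 1.69-fold (1.28 to 2.23), against 17.1% and 14% of all genes. The member median was -0.06 and 20 of 48 genes lay above 0, against 0.04 and 53.1% over all genes. Eif6 (1.03-fold lower with TGZ, interval 0.78 to 1.35) and Eif4ebp3 (1.06-fold lower, 0.80 to 1.40) lay close to equal under the 2 drugs, which does not show that the drugs act alike on them, since the intervals allow differences of up to 1.35-fold and 1.40-fold. After spike-in scaling each value was lower by 0.32 and Eif2b4, at -1.08, was 2-fold lower, beside 11.3% of all genes. These are 2 pairs of arrays and neither difference could be tested.

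BSO with a drug was compared with the same drug alone. No member differed by 1.5-fold between BSO plus TGZ and TGZ, where 5.4% of all genes were higher and 3.23% lower, nor between BSO plus RGZ and RGZ, where 2.96% were higher and 4.12% lower. With TGZ, 12 of 48 members were above 0 (45.9% of all genes) with a median of -0.08, and with RGZ 41 of 49 were above 0 (49.5% of all genes) with a median of 0.15. In 30 of 48 members BSO went with a lower value under TGZ and a higher value under RGZ, a combination held by 28.4% of the 18484 genes above background on all arrays. The first count turned on the scale, since spike-in controls raised each BSO plus TGZ value over TGZ by 0.26 and put 44 of 48 members and 84.2% of all genes above 0, leaving 3 of 48 members and 7.28% of all genes with that combination.

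Eif2b3 had the widest gap between the drugs among the 48, 0.42 lower with BSO under TGZ and 0.31 higher under RGZ. The difference of the 2 effects was -0.73 (95% interval of spot error -1.30 to -0.17). For Eif1a it was -0.64 (-1.21 to -0.07), for Eif6 -0.60 (-1.17 to -0.04), for Eif2b4 -0.60 (-1.16 to -0.03) and, in the other direction, for Eif5b 0.68 (0.06 to 1.31). These were the 5 of 48 members (10.4%) whose interval left out 0, against 10.9% of all genes. Which genes they were turned on the processing: Eif5b alone on the spike-in scale, at 0.91, Eif2b3 alone with quantile normalization and with normexp, at -0.67 and -0.59, and 9 members without Eif5b with median scaling. The mean over probes lost Eif2b4 and Eif6. Eif5b stood at 0.53 (-0.09 to 1.16) with median scaling, 0.61 (-0.02 to 1.23) with quantile normalization and 0.21 (-0.41 to 0.83) with normexp.

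**Figure D5:**
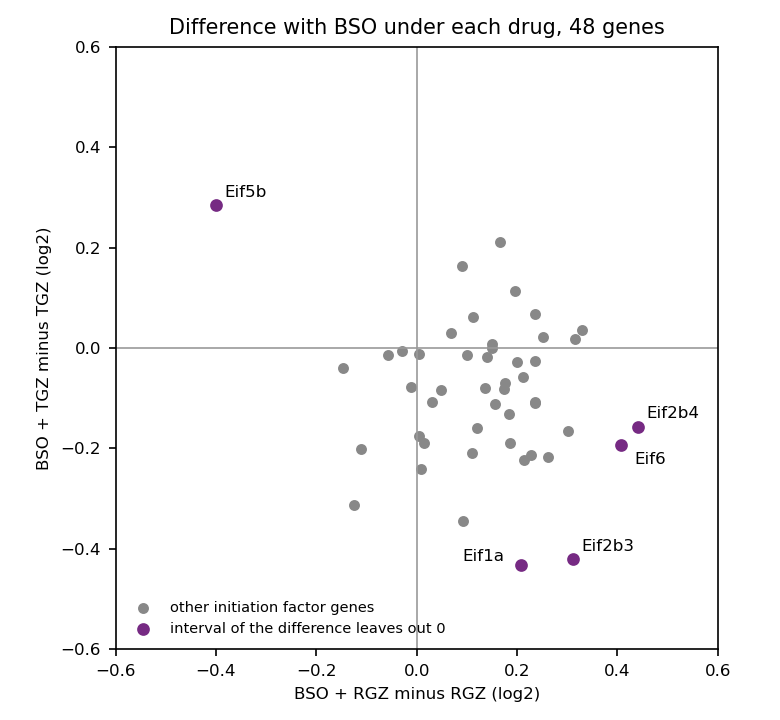
Log2 difference between BSO plus TGZ and TGZ (vertical axis) against that between BSO plus RGZ and RGZ (horizontal axis) for the 48 initiation factor genes measured on all arrays, with 1 array per group. Most points, 30 of 48, lie at the lower right, and purple marks the 5 genes whose interval for the difference of both values leaves out 0; on the spike-in scale every point would lie higher by 0.26.

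The regulators that act on these factors were described from lists of related genes. Of 11 eIF2 kinases, phosphatase subunits and genes of the ATF4 branch, 4 were at least 2-fold above vehicle with TGZ and none below, beside the 10.1% and 9.48% of all genes given above. Those were Ppp1r15a, a phosphatase subunit that reverses eIF2 phosphorylation (2.12), Impact, an inhibitor of the kinase GCN2 (1.94), Atf4 (1.49) and Eif2ak3, the kinase PERK (1.46). The same 4 were 2-fold higher with BSO plus TGZ, at 1.72, 2.06, 1.16 and 1.02, beside 8.31% of all genes; on the spike-in scale all 4 stayed past 2-fold with TGZ, but Atf4 and Eif2ak3 came to 0.97 and 0.83 with BSO plus TGZ. With RGZ the 1 gene past 2-fold was Ddit3, a target of ATF4 (1.12), beside 1.65% of all genes higher. With BSO plus RGZ there were 2, Ddit3 (1.68) and Eif2ak3 (1.28), beside 3.05% of all genes. On the spike-in scale these counts were 2 and 4, beside 2.14% and 4.25% of all genes. The list medians were 0.86, 0.07, 0.14 and 0.54 in the order TGZ, BSO plus TGZ, RGZ and BSO plus RGZ. After spike-in scaling they were 0.40, -0.12, 0.23 and 0.67, so BSO plus RGZ was then the highest.

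Among 15 genes of cap control and mTORC1, 3 were 2-fold above vehicle and 1 below with TGZ, where all genes gave 10.1% and 9.48%. Ddit4, an inhibitor of mTORC1, was higher by 4.05, the repressor Eif4ebp1 by 1.80 and the eIF4E kinase Mknk2 by 1.40, and Pdcd4, which inhibits eIF4A, stood at -1.45. Mknk2 came to 0.94 on the spike-in scale, short of 2-fold, and the other 3 stayed past it. With BSO plus TGZ 2 were higher, Ddit4 at 3.44 and Eif4ebp1 at 1.37, beside 8.31% of all genes. Pdcd4 was then at -1.15, where 5.89% of all genes were 2-fold lower. No gene of the list was 2-fold from vehicle on either RGZ array. Eif4ebp1 stood at 0.67 with RGZ and 0.87 with BSO plus RGZ, below its own TGZ values.

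With TGZ, 10.1% of all genes were 2-fold higher and 9.48% lower, the background for each list of this paragraph. None of the 8 measured elongation factor genes was 2-fold higher with TGZ and 1 was lower, the eEF2 kinase Eef2k at -1.27. The list median was 0.33, and -0.13 on the spike-in scale. Of 9 termination and recycling factors 1 was 2-fold higher with TGZ, the release factor Etf1 at 1.04 (0.59 on the spike-in scale). With BSO plus RGZ 2 were 2-fold higher, Gspt2 at 1.60 and Pelo at 1.14, beside 3.05% of all genes. Of 12 poly(A)-binding proteins and initiation helpers 1 was 2-fold higher with TGZ, the helicase Ddx3x at 1.70. With TGZ on the spike-in scale, 2 elongation, 1 termination and 2 helper genes were 2-fold lower, beside 20.1% of all genes. None of the 8 mitochondrial translation factors was 2-fold from vehicle on any treated array, but on the spike-in scale Mtif3 and Mtrf1 were 2-fold lower with TGZ, at -1.31 and -1.23. Their median was -0.31 with TGZ, and -0.76 after spike-in scaling.

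Promoter sequence was available from RefSeq (GRCm38.p6) for 40 of the 51 members, as 250 bases before to 50 after the start, and was searched on both strands, overlapping matches included, for 6 short motifs. The entries not matched were Eif1a, Eif2b3, Eif3e, Eif3h, Eif3i, Eif3j2, Eif4e1b, Eif4e3, Eif4ebp3, Eif4g2 and Eif6. The GC box GGGCGG was found in 31 of 40 members (77.5%) and in 38.2% of all 27025 genes, and the ETS-type motif CCGGAAG in 15 (37.5%) and 9.93%. The E-box CACGTG, bound by MYC and its relatives, was in 10 members (25%) and 8.09% of genes. The NRF2-type core TGACNNNGC was in 8 (20%) and 14.0%, the ATF4 composite motif TGATGNAA in 1, Eif2s3x (2.50%), and 4.51%, and the CRE TGACGTCA in none and 2.03%. A match of letters is no measurement of binding.

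The 3 members past 2-fold with TGZ that have a promoter entry are shown, since their folds were close (2.14, 2.08 and 2.04) and the motifs found differ. Each line gives the 250 bases before the start in the direction of transcription, with matches of these motifs in capitals, from chr11:69672424-69672673 (minus strand), chr12:111537851-111538100 (plus strand) and chr2:122028330-122028579 (plus strand) of GRCm38.p6.
Eif4a1: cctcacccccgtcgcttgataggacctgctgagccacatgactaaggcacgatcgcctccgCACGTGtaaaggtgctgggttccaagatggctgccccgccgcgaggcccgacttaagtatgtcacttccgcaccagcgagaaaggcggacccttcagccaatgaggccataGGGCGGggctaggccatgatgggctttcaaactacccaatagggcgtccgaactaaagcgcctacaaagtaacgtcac
Eif5: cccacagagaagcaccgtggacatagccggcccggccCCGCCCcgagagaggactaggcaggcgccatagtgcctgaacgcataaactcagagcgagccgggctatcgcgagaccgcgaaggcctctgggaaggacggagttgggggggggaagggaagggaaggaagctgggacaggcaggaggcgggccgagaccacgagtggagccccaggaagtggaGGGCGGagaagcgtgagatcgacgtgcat
Eif3j1: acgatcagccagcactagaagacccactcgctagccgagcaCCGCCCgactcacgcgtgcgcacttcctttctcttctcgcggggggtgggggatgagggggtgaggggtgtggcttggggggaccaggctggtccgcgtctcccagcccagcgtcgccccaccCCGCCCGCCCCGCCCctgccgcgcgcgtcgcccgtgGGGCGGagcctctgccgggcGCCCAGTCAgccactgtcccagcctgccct
Eif4a1 holds 1 E-box at position -189 and 1 GC box at -78 from the start. Eif5 holds 2 GC boxes, at -213 and -29. Eif3j1 holds 5 GC boxes, of which CCGCCC is the other strand, and 1 NRF2-type match at -30. The G and C share of the 250 bases was 58.8% in Eif4a1, 66.4% in Eif5 and 73.6% in Eif3j1.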

How the data were processed

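Pooled liver RNA of 5 groups, 6 animals each, was hybridised to 1 one-colour (Cy3) Agilent array per group. Intensities are the background-subtracted processed signals which, per the file headers, came from version 12.0.3.1 of Agilent's Feature Extraction program with probes placed on mm9. The deposited table of log2 values matched log2 of those signals plus a constant per array to within 0.01 for 99.8% of probes; how that constant was set is not known here.

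Control spots were left out, spots of a probe averaged, log2 signal taken and the array's 75th percentile subtracted. Each gene was represented by the probe of the highest average signal. A probe not well above background on an array had a floor there, the lowest signal well above background, and gave only a bound. Calls were made at 2-fold, with 1.5-fold as a second level, in 8 comparisons. With 1 array per group there is no replicate and no p-value: 95% intervals combine the software's errors of 2 spots, do not cover animals, and are nearly constant for bright spots because the software's error model sets them. The number of arrays limits the precision.

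The genes named are all members at least 1.5-fold apart in any comparison, the widest member of each complex, and up to 4 genes per companion list; probes that stood apart were chosen after their values were seen. The members, the 6 companion lists (64 genes) and the 9 marker lists were chosen with earlier results of these data known. Alternatives (9) were scaling to the median or to 8 spike-in probes, quantile normalization, normexp background correction (offset 50), the mean over a gene's probes, no filter or a strict filter on dim probes, the deposited log2 table, and 1.5-fold. R 4.3.3 with limma 3.58.1 and Python 3.11.15 with pandas 2.3.3, NumPy 2.4.6, SciPy 1.17.1 and Matplotlib 3.10.9 were used, and the calling steps were tested on simulated data. The names rosiglitazone and buthionine sulfoximine for RGZ and BSO are general knowledge, not from the labels.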

Additional observations from a re-analysis of the deposited data

Results flagged for a closer look

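For 5 initiation factor genes the value with BSO relative to the drug alone had opposite signs under the 2 drugs, with a spot-error interval of the difference that left out 0. Whatever the signs, such an interval was held by 10.4% of the 48 members and 10.9% of all genes, so the count is near the share of all genes. The difference, TGZ side minus RGZ side, was -0.73 for Eif2b3, -0.64 for Eif1a, -0.60 for Eif6, -0.60 for Eif2b4 and 0.68 for Eif5b on the log2 scale. With 1 array per group the difference between the drugs was not tested, and no gene kept an interval that left out 0 under every alternative. Eif5b alone kept it with spike-in scaling, Eif2b3 alone with quantile normalization and with normexp, and Eif5b lost it with median scaling, quantile normalization and normexp, at 0.21 in the last.

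In 3 genes a probe that does not represent its gene was 2-fold or more above vehicle in a comparison where the gene's own probe was below 2-fold. The Eif4e probe A_55_P1965584 stood at 2.71 with TGZ and 2.48 with BSO plus TGZ. The Eif4a2 probe A_55_P2648932 stood at 1.78 and 1.22 on the same arrays. The Eif6 probe A_52_P371949 stood at 1.59 with BSO plus RGZ.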

How the results depend on the processing

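Scaling was the choice that mattered most. Of 88 values of named genes, all kept within the spot error of the reported value under median scaling, the deposited log2 table, the strict filter and no filter on dim probes; 4 moved further with the mean over probes, 4 with normexp, 3 with quantile normalization and 44 with spike-in scaling. Spike-in scaling turned the members' median to -0.16 for TGZ and -0.045 for BSO plus TGZ against vehicle, to 0.18 for BSO plus TGZ against TGZ and to -0.42 for TGZ against RGZ, and gave -0.38 for the drugs with BSO; the mean over probes gave 0.0012 for that last comparison and normexp -5.8e-05 for TGZ against RGZ. Members past 2-fold with TGZ numbered 1 with spike-in scaling, 2 with quantile normalization and 3 with normexp. Over all genes the shares higher and lower were 5.63% and 20.1%, 9.82% and 9.76%, and 5.18% and 4.26% in that order. With the mean over probes Eif6 and Eif3j1 fell short of 2-fold. For TGZ against RGZ 1 member was past 2-fold with spike-in scaling and 1 with normexp, and for the drugs with BSO 1 with spike-in scaling. For BSO plus RGZ against vehicle there was 1 each with median scaling, spike-in scaling, the mean over probes and no filter. No filter on dim probes also gave 2 for BSO plus TGZ and 1 for RGZ against vehicle, and 1 for BSO plus TGZ against TGZ. Without the filter Eif4e3 was also 2-fold lower with TGZ (-5.96, not above background) than with RGZ (-3.87). With the mean over probes Eif4a2 was also 2-fold higher with TGZ than with RGZ. At 1.5-fold the counts against vehicle were 1 for RGZ, 5 for RGZ with BSO and 7 for TGZ with BSO, with 7 for TGZ against RGZ and 2 for the drugs with BSO. Causes were not tested.

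No paired analysis was possible because each group has a single array. Signal over background limits Eif4e3, Eif2c5 and Eif2s3y, and pooling hides differences between animals in every value.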
